A study of Mus musculus with 21 samples.

Results

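Tk1 encodes thymidine kinase 1, the cytosolic enzyme that phosphorylates thymidine for DNA synthesis and is made mainly in dividing cells. It was examined with 9 other genes of cell proliferation, Tyms, Rrm2, Pcna, Mcm2, Mcm6, Mki67, Top2a, Ccnd1 and Ccnd2, across 4 diet groups of mice. These are 10 of the 21654 genes in the count table, and each of the 10 symbols was found there. Tk1 was selected on its measured values, since it had no reads in the HFD → RC libraries, and its levels are therefore given as a description with no test of that difference. The other 9 genes were chosen by their known roles in proliferation, to examine whether the absence of Tk1 reads was shared.

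Dividing cells pass from G1, where D-type cyclins act, into S phase, where DNA is copied, and then through G2 into mitosis. E2F transcription factors switch on the S phase genes, among them the enzymes that supply deoxynucleotides and the MCM helicase that opens the DNA. Most neurons of the adult brain do not divide, whereas oligodendrocyte precursors, microglia and some cells that line the ventricles can.

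The study asked how diet, energy balance and body weight each relate to gene expression in the ventral hypothalamus (VH), a region that senses hormones and nutrients and regulates feeding. RNA-seq was run on polyA RNA of VH punches from male C57BL/6J mice of 12 to 14 weeks at purchase. All mice were kept awake for 3 hours with unfamiliar objects before tissue collection in the middle of the light phase. Each library was a pool of punches from 2 mice, so the spread between libraries is that between pools of animals. The groups were mice kept on regular chow with no diet switch (RC NoDS, n = 5), mice moved from chow to high-fat diet (RC → HFD, n = 6), mice moved from high-fat diet to chow (HFD → RC, n = 5) and mice kept on high-fat diet (HFD NoDS, n = 5). The switch took place a week before collection. The groups with 5 libraries had each lost 1 at a quality check made before sequencing.

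Depth had been equalised by the authors through re-sampling, so that between 16380781 and 16390598 reads were counted on genes in each of the 21 libraries. Libraries differed more in how many weakly expressed genes had no read. As a measure of this, genes with a mean of 5 to 50 reads were taken, 3116 in number, and the percent of them without a read in a library is called the share of low genes at 0. The mean share was 16.5% ± 10.3 (SD) for HFD → RC and 16.3% ± 9.93 for HFD NoDS (n = 5 each), 11.9% ± 8.82 for RC → HFD (n = 6) and 3.22% ± 2.42 for RC NoDS (n = 5). The highest shares were those of HFD NoDS replicate 20 (32.9%) and HFD → RC replicate 17 (31.9%), and the lowest in HFD → RC was 5.68% in replicate 15. The share in HFD → RC was 13.3 percentage points higher than in RC NoDS (exact two-sided permutation test, p = 0.0159, 0.0476 after Benjamini-Hochberg adjustment over 6 pairs of groups), and 4 of the 5 HFD → RC libraries lay above the highest RC NoDS library. It was 4.57 points higher than in RC → HFD (exact permutation p = 0.448, adjusted 0.566) and differed by -0.212 points between HFD NoDS and HFD → RC (exact permutation p = 0.968, adjusted 0.968). Without any 1 of the 5 RC NoDS libraries the adjusted p of the difference between HFD → RC and RC NoDS was 0.0714 to 0.119. These shares are given beside the Tk1 values, and their part in them was not tested.

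Tk1 (ENSMUSG00000025574) lies on the minus strand of chromosome 11 at 117676840 to 117687406 in the mm9 genome. It had 0 reads in each of the 5 HFD → RC libraries. In RC NoDS it had 5, 9, 0, 3 and 11 reads in replicates 1, 2, 3, 5 and 6, and in HFD NoDS 7, 21, 6, 1 and 13 reads in replicates 19, 20, 21, 23 and 24. In RC → HFD the lowest of the 6 libraries had 10 reads, the median was 18.5 and the highest had 25. The reads of HFD → RC thus did not overlap those of RC → HFD or HFD NoDS (as in 0.472% and 0.995% of all genes tested), a separation that rests on the zeros for which Tk1 was selected, and they overlapped those of RC NoDS through replicate 3, which also had 0.

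The mean number of Tk1 reads was highest in RC → HFD at 18.3 ± 5.50 (SD, n = 6), followed by HFD NoDS at 9.6 ± 7.67 (n = 5), RC NoDS at 5.6 ± 4.45 (n = 5) and HFD → RC at 0. The ranges of RC → HFD and HFD NoDS overlapped, as did those of HFD NoDS and RC NoDS. RC → HFD and RC NoDS overlapped only through RC → HFD replicate 8 (10 reads) and RC NoDS replicate 6 (11 reads), and this pair was not tested. HFD NoDS differed from RC NoDS by 0.78 ± 0.89 on the log2 scale (SE, adjusted p = 0.899, edgeR quasi-likelihood test), which is within the spread between libraries. Over 29 alternatives this difference ran from 0.0774 to 1.17, and with 1 library left out from 0.275 to 1.17. As a scale, a floor of 3 reads summed over the 5 HFD → RC libraries was set. The mean Tk1 reads were 30.6-fold above this floor in RC → HFD, 16-fold in HFD NoDS and 9.33-fold in RC NoDS. Reads carry no molecular identifiers and are not independent molecules, and the ratios leave out the spread between libraries. They rest on the zeros for which Tk1 was selected, so they are a description and not a lower bound on a difference. In bulk tissue, fewer cells that express a gene and less RNA per cell cannot be told apart.

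The share of low genes at 0 was 9.24%, 20.5%, 5.68%, 15.1% and 31.9% in HFD → RC replicates 13 to 17, all without Tk1 reads. Of these only replicate 15 lay below the highest RC NoDS library (7.22%). HFD NoDS replicate 20, which had the highest share of all 21 libraries, held 21 Tk1 reads, and RC → HFD replicates 10, 11 and 12, with shares of 19.2%, 17.6% and 22.4%, held 17, 25 and 23. RC NoDS replicate 3, with 0 Tk1 reads, had a share of 2.34%. These values describe the libraries, and the part of the share of low genes at 0 in the Tk1 zeros was not tested.

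**Figure D1:**
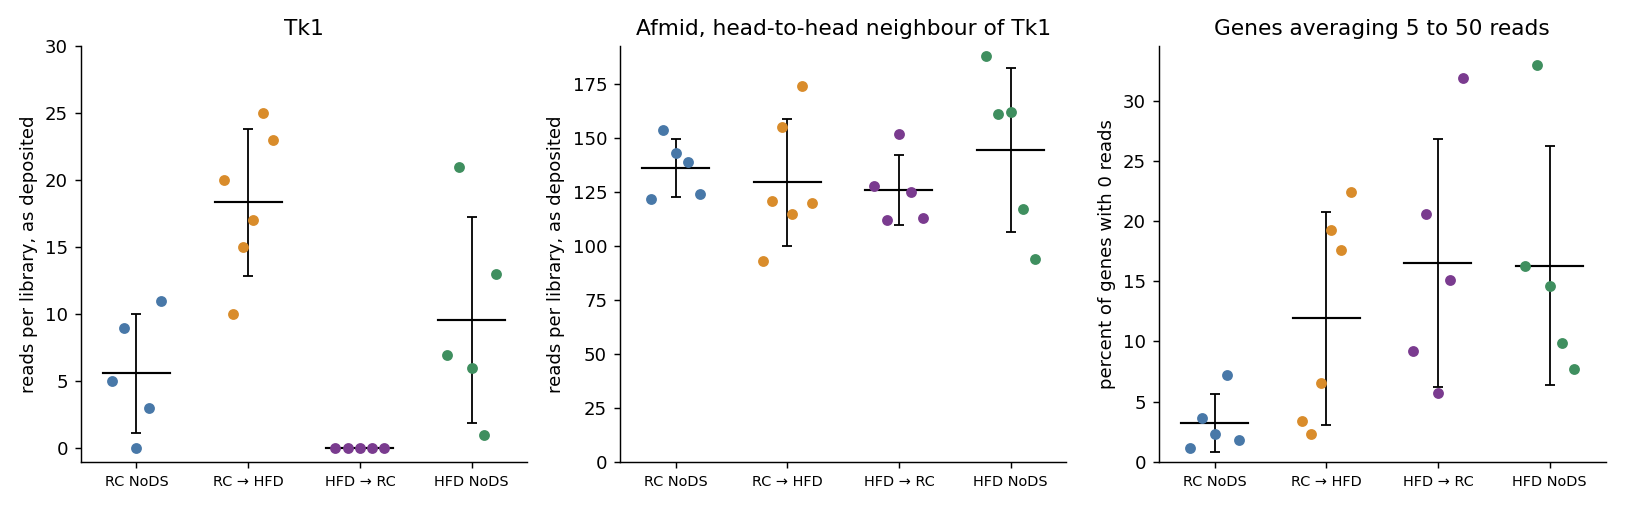
Reads per library of Tk1 (left) and of its neighbour Afmid (middle), and the share of low genes at 0 in percent (right), by diet group on the horizontal axis. Points are libraries, horizontal lines are group means and bars are ± 1 SD; the 5 HFD → RC libraries are at 0 for Tk1 and between 112 and 152 for Afmid.

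Genes with such a pattern were few in each group. By the rule that noticed Tk1, 16 of 15877 genes averaging at least 5 reads over the other 16 libraries had 0 reads in all HFD → RC libraries (0.101%). The same rule took 11 genes in HFD NoDS (0.0693%), 4 in RC → HFD (0.0251%) and 3 in RC NoDS (0.0189%). Tk1 had the highest mean of the 16 genes, 11.6 reads over the other libraries, and was at 0 in only 1 of these, RC NoDS replicate 3. Others were Ighg1 (9.25), Cnksr1 (8.38), F420014N23Rik (8.19), Cyp4b1 (7.13), Zfp960 (6.69), Cyp4f41-ps (5.88), Igkc (5.88) and Pdia2 (5.63). Ighg1 and Igkc encode immunoglobulin chains, and the Ighg1 reads came from 1 library, which held 148 of them. Of the 10 proliferation genes, Tk1 was the only one in this group of 16. Tyms, Mcm2, Mcm6, Ccnd2, Pcna and Ccnd1 averaged from 55.1 (Tyms) to 608 (Ccnd1) reads over all libraries. At such levels 0 reads in all 5 libraries was hardly possible, so the rule could say little about these genes. Rrm2, Top2a and Mki67 were nearer to Tk1, with averages of 22.1, 11.9 and 10.1 reads. Sgol1, which protects the cohesion of sister chromatids in mitosis, was also among the 16, with a mean of 5.5 reads over the other libraries and 0 reads in 7 of them; it was picked out after its values were seen.

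The genes most like Tk1 over the 21 libraries were ranked by Spearman correlation of reads among 15883 other genes. They were Itga4, an integrin subunit (rho = 0.748, Pearson r = 0.774), Fancb of the Fanconi anaemia DNA repair complex (rho = 0.735, r = 0.675), the calcium channel gene Cacna1d (rho = 0.734, r = 0.76), Cnksr1 (rho = 0.731, r = 0.728) and the phosphatase gene Ptpn5 (rho = 0.723, r = 0.734). None of the other 9 proliferation genes was near the top of this order. Their rho ran from -0.389 for Pcna to 0.346 for Tyms, which ranked at 1033. Each value describes 21 libraries of 4 groups that differ in the share of low genes at 0. The order includes the HFD → RC zeros for which Tk1 was selected, so it favours genes with low reads in that group. Cnksr1 was itself at 0 in all HFD → RC libraries. The top values are the highest among 15883 genes and were not tested. Whether the other 9 genes follow Tk1 apart from the HFD → RC zeros cannot be read from this order.

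The other 9 genes were tested in 6 comparisons with a quasi-likelihood model fitted to all 15884 genes averaging at least 5 reads (the Low Filter), with genes called at an adjusted p under 0.15. All 10 genes passed this filter, Tk1 with an average of 8.86 reads over all libraries. In HFD → RC against the other 3 groups, 0 of the 9 were called, beside 1 of all genes tested (0.0063%). Against RC NoDS, 0 of 9 were called beside 25 of all genes (0.157%), and against RC → HFD 0 of 9 beside 2 (0.0126%). Against HFD NoDS, 0 of 9 were called beside 4 of all genes (0.0252%). In HFD NoDS against RC NoDS, 0 of 9 were called beside 10 of all genes (0.063%). In the test of whether the effect of the current diet differed with the earlier diet, 0 of 9 were called beside 0 of all genes (0%). The counts over all genes include Tk1, and since its HFD → RC values selected it, no call of Tk1 is read from these comparisons.

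So few genes were called in all that a count of 0 among 9 is close to this background. At an unadjusted p under 0.05 edgeR gave 0, 0, 1, 2, 2 and 0 of the 9 genes in these 6 comparisons, where 6.59%, 7.01%, 5.02%, 7.4%, 6.43% and 8.16% of all genes tested had such a p. DESeq2 called 1 of the 9, Ccnd1 in HFD NoDS against RC NoDS. In that comparison it also called more of all genes than edgeR (counts under How the results depend on the processing). With limma-voom and limma-trend 0 of the 9 were called in each comparison. The comparisons with HFD → RC share its 5 libraries. None of the 9 had reads in HFD → RC that lay wholly outside the range of RC NoDS, RC → HFD or HFD NoDS, a separation seen in 1.36%, 0.472% and 0.995% of all genes tested. HFD NoDS and RC NoDS also overlapped in each of the 9, and did not overlap in 0.913% of all genes.

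**Figure D2:**
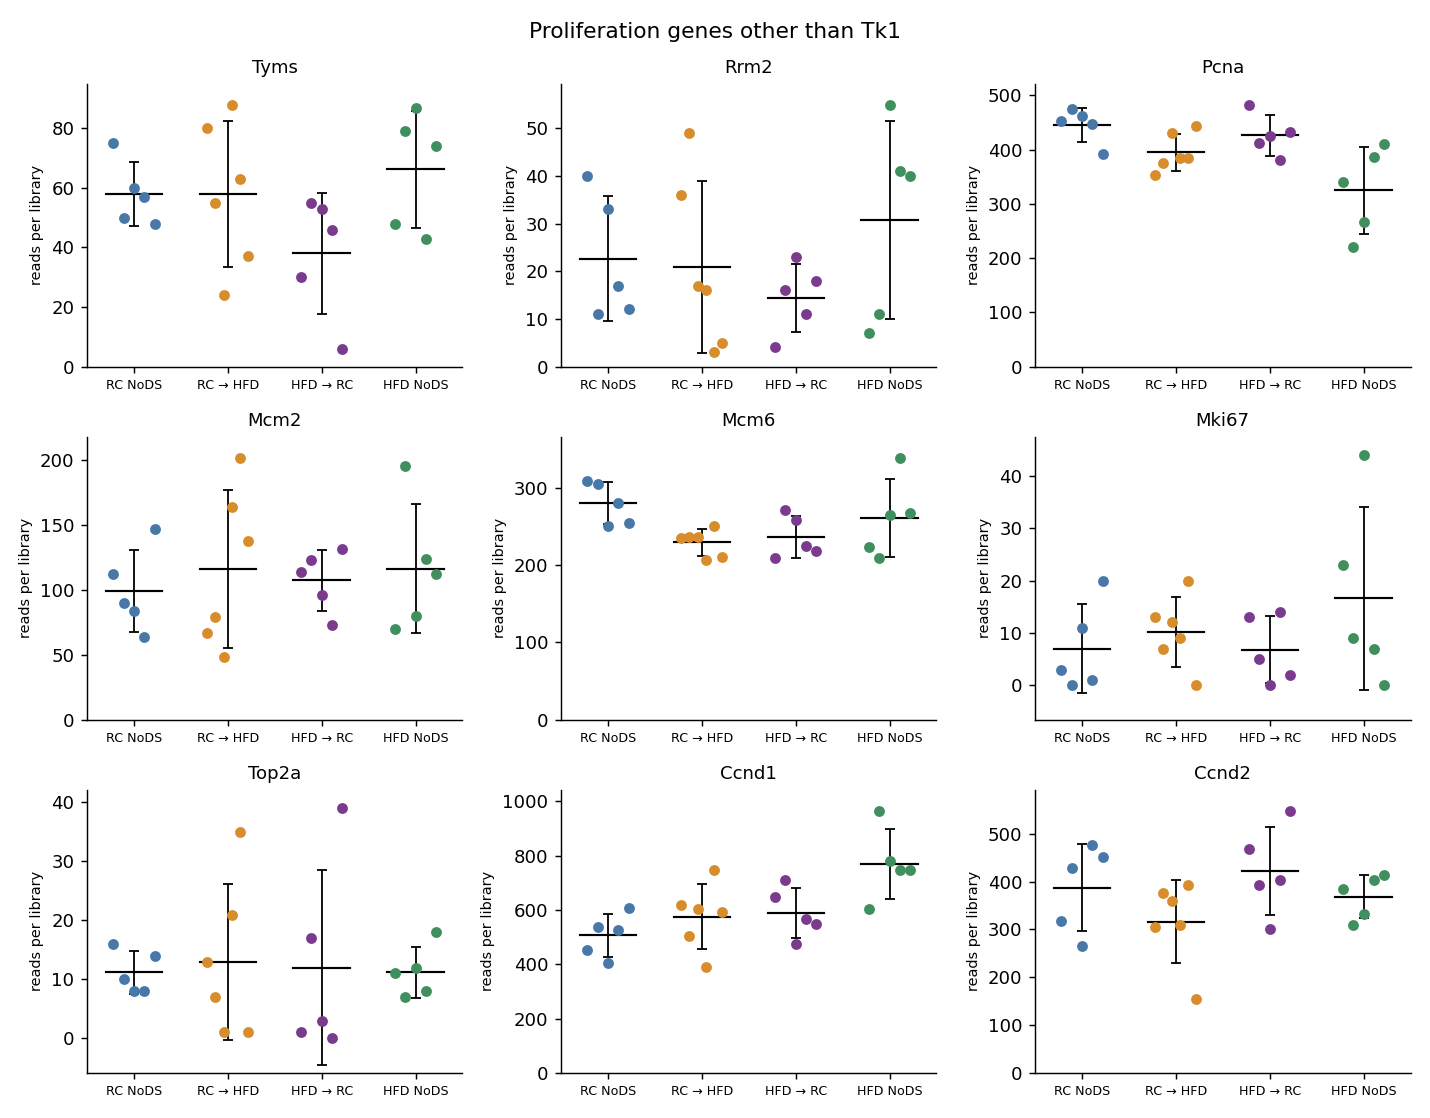
Reads per library, as deposited, of the 9 proliferation genes other than Tk1 by diet group on the horizontal axis. Points are libraries, lines are group means and bars are ± 1 SD; the HFD → RC range overlaps that of each other group for all 9 genes, and reaches beyond all of them for Tyms (lowest), Pcna and Ccnd2 (highest) and Top2a (both).

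Levels of the 10 genes were compared per kilobase of annotated exon. Averaged over 21 libraries, Pcna had the highest level at 262 reads per kb, followed by Ccnd1 (163), Ccnd2 (65.1), Mcm6 (57.4), Mcm2 (32.7), Tyms (17.4) and Rrm2 (9.3). Tk1 followed with 6.15 reads per kb, above Top2a (2.14) and Mki67 (1.01). On this scale Tk1 was therefore not the weakest of the 10 genes. In reads it had the lowest mean, 8.86 over 21 libraries with the HFD → RC zeros included. The 2 genes below it per kb, Mki67 and Top2a, had more reads in all and longer exons.

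Tyms and Rrm2 act beside Tk1 in the supply of deoxynucleotides. Tyms encodes thymidylate synthase, which makes thymidylate by the pathway that does not need thymidine. It had 30, 55, 53, 46 and 6 reads in HFD → RC replicates 13 to 17, 75, 50, 60, 57 and 48 in RC NoDS and 48, 79, 87, 43 and 74 in HFD NoDS. RC → HFD ranged from 24 to 88 with a median of 59. All HFD → RC libraries therefore had Tyms reads, and the lowest value belonged to replicate 17, the library of that group with the most low genes at 0. Tyms had a log2 fold change of -0.66 ± 0.36 (SE) in HFD → RC against the other 3 groups (edgeR adjusted p = 0.794) and of -0.78 ± 0.43 against HFD NoDS (adjusted p = 0.703), neither of which passed the threshold.

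Rrm2 encodes the small subunit of ribonucleotide reductase, which makes deoxynucleotides from ribonucleotides in S phase. It had 4, 16, 23, 11 and 18 reads in HFD → RC, 40, 11, 33, 17 and 12 in RC NoDS, and 7, 11, 55, 41 and 40 in HFD NoDS. In RC → HFD the values ran from 3 to 49 with a median of 16.5. The groups overlapped throughout. Its log2 fold change was -0.74 ± 0.61 (SE) in HFD → RC against the other 3 groups (edgeR adjusted p = 0.894) and -1.07 ± 0.72 against HFD NoDS (adjusted p = 0.778). With SEs of this size a change of Rrm2 was not detectable at this depth unless it was large.

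Pcna, Mcm2 and Mcm6 work at the replication fork. Pcna encodes the sliding clamp that holds DNA polymerase on its template and also takes part in DNA repair. It had 483, 412, 425, 380 and 432 reads in HFD → RC, 453, 474, 462, 447 and 392 in RC NoDS and 340, 220, 267, 386 and 410 in HFD NoDS. RC → HFD ranged from 354 to 444 with a median of 384. HFD NoDS held the 3 lowest values of the 21 libraries and overlapped each other group. The log2 fold change of Pcna was 0.41 ± 0.14 (SE) in HFD → RC against HFD NoDS (edgeR adjusted p = 0.523) and -0.45 ± 0.14 in HFD NoDS against RC NoDS (adjusted p = 0.708). Neither passed the threshold after adjustment over all genes. Against the other 3 groups together, HFD → RC differed by 0.16 ± 0.11 (adjusted p = 0.883).

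Mcm2 and Mcm6 encode subunits of the MCM helicase, which is loaded on DNA in G1 and unwinds it in S phase. Mcm2 ranged from 73 to 132 reads in HFD → RC, from 64 to 147 in RC NoDS, from 48 to 202 in RC → HFD and from 70 to 196 in HFD NoDS. Mcm6 was steadier between libraries, at 209 to 272 reads in HFD → RC, 251 to 309 in RC NoDS, 207 to 251 in RC → HFD and 209 to 339 in HFD NoDS. The HFD → RC libraries lay within the range of each other group for Mcm2, and within that of HFD NoDS for Mcm6. HFD → RC replicates 13, 16 and 17, with 209, 225 and 218 Mcm6 reads, lay below all RC NoDS libraries. Against RC NoDS the log2 fold change of Mcm6 was -0.22 ± 0.14 (SE, edgeR adjusted p = 0.829). Log2 fold changes in HFD → RC against the other 3 groups were -0.03 ± 0.27 (SE) for Mcm2 (edgeR adjusted p = 0.996) and -0.10 ± 0.12 for Mcm6 (adjusted p = 0.939). The sign for Mcm2 was positive with limma-voom (0.0553).

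Mki67 and Top2a mark cells in G2 and mitosis. Mki67 encodes Ki-67, a protein that coats mitotic chromosomes and is used as a marker of dividing cells. It had 13, 5, 0, 14 and 2 reads in HFD → RC, 3, 0, 11, 1 and 20 in RC NoDS and 23, 9, 44, 7 and 0 in HFD NoDS, while RC → HFD ranged from 0 to 20 with a median of 10.5. Each group had 1 library at 0, and 34 Mki67 reads were counted over the HFD → RC libraries, in which Tk1 had none. The log2 fold change of Mki67 was -0.62 ± 0.92 (SE) in HFD → RC against the other 3 groups (edgeR adjusted p = 0.959) and -1.27 ± 1.10 against HFD NoDS (adjusted p = 0.839). With 1 library left out these values ran from -1.06 to -0.31 and from -1.70 to -0.52.

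Top2a encodes the topoisomerase that untangles chromosomes before they separate. It had 1, 17, 3, 0 and 39 reads in HFD → RC, 16, 10, 8, 8 and 14 in RC NoDS and 11, 7, 12, 8 and 18 in HFD NoDS, and ranged from 1 to 35 in RC → HFD with a median of 10. The HFD → RC values were the most scattered, with the highest of all 21 libraries in replicate 17 and the only 0 in replicate 16. The group means were close, 12 ± 16.6 (SD, n = 5) in HFD → RC against 11.2 ± 3.63 (n = 5) in RC NoDS. The log2 fold change in HFD → RC against the other 3 groups was 0.03 ± 0.77 (SE, edgeR adjusted p = 1), and without HFD → RC replicate 17 it was -1.13.

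Ccnd1 and Ccnd2 encode D-type cyclins, which activate CDK4 and CDK6 in G1 and are also made in cells that do not divide. Ccnd1 had 649, 711, 475, 566 and 547 reads in HFD → RC, 453, 538, 404, 528 and 609 in RC NoDS and 604, 965, 781, 746 and 748 in HFD NoDS, and ranged from 389 to 746 in RC → HFD with a median of 597.5. HFD NoDS had the highest mean, 769 ± 129 (SD, n = 5) against 506 ± 79.6 (n = 5) in RC NoDS, and 4 of its 5 libraries lay above every RC NoDS library. The log2 fold change of HFD NoDS against RC NoDS was 0.62 ± 0.15 (SE, edgeR adjusted p = 0.357), which did not pass the threshold. With DESeq2 the adjusted p was 0.0706, and over 30 alternatives it ran from 0.0706 to 1. Between HFD → RC and HFD NoDS the log2 fold change was -0.37 ± 0.15 (edgeR adjusted p = 0.584), and against the other 3 groups it was -0.03 ± 0.12 (adjusted p = 0.992).

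Ccnd2 ranged from 301 to 548 reads in HFD → RC, from 265 to 476 in RC NoDS, from 154 to 394 in RC → HFD and from 310 to 413 in HFD NoDS. The lowest of the 21 values was that of RC → HFD replicate 12. HFD → RC was 0.41 ± 0.19 (SE) higher than RC → HFD on the log2 scale (edgeR adjusted p = 0.973), with overlapping libraries, and 0.25 ± 0.16 higher than the other 3 groups (adjusted p = 0.849). Neither difference passed the threshold.

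**Figure D3:**
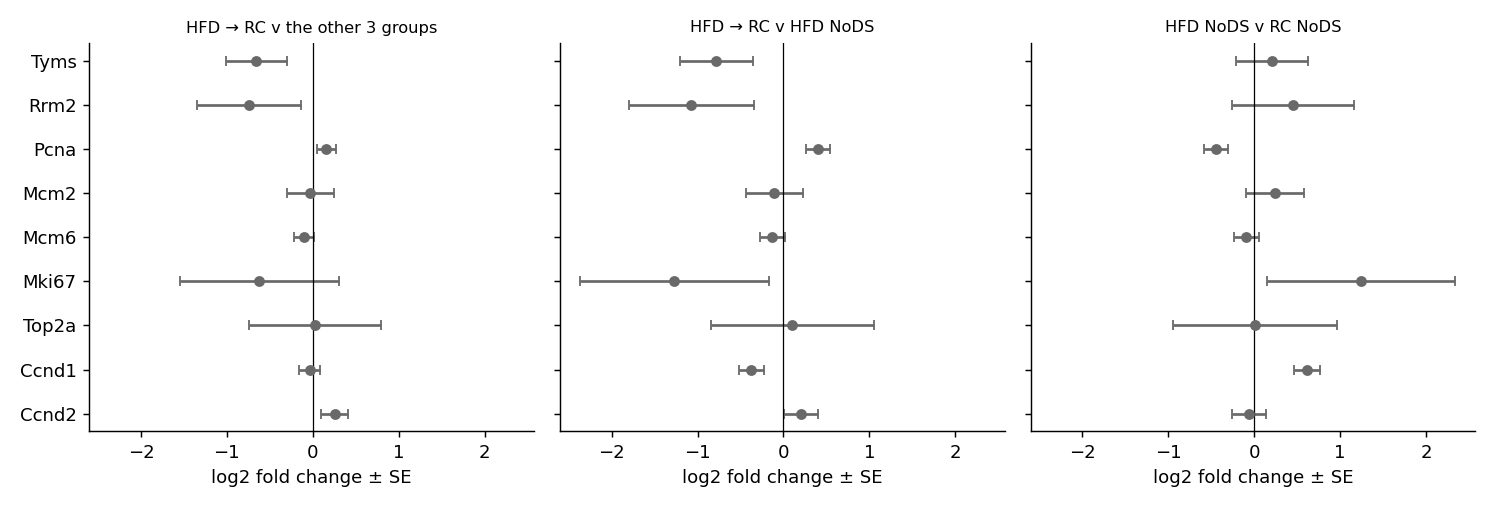
Log2 fold change of the 9 proliferation genes other than Tk1 in 3 comparisons, HFD → RC v the other 3 groups (left), HFD → RC v HFD NoDS (middle) and HFD NoDS v RC NoDS (right), from edgeR. Points are estimates and bars are ± 1 SE; the bars of Mki67 and Top2a are the widest, and 0 of the 9 genes passed an adjusted p of 0.15 in any of the 3.

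The wider cell cycle was described with 4 lists of 104 genes, of which 92 were tested. Of the 91 tested genes other than Tk1, 0 were called by edgeR in each of the 6 comparisons. When HFD → RC was set against the other 3 groups, 48 of the 91 had a higher and 43 a lower level, with a median log2 fold change of 0.02 against 0.00184 over all genes tested, and 4 had an unadjusted p under 0.05 (4.4%, against 6.59% of all genes). DESeq2, limma-voom and limma-trend also called 0 of the 91 in this comparison, with 4, 4 and 6 at an unadjusted p under 0.05.

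Of the lists, S phase and DNA replication had 31 of 32 genes tested, with a median log2 fold change of -0.02 in that comparison, 15 of them higher and 16 lower. Thymidine and deoxynucleotide supply had all 15 tested, and its 14 genes other than Tk1 had a median of 0.01, 8 higher and 6 lower. Tk2, which encodes the mitochondrial thymidine kinase, had between 841 and 1178 reads in the 21 libraries, and 846 to 1056 in HFD → RC. G2 and mitosis had 19 of 28 tested, with a median of 0.04, 11 higher and 8 lower. The list of G1 cyclins, kinases, inhibitors and E2F factors had 27 of 29 tested, with a median of 0.01, 14 higher and 13 lower. Tk1 left aside, these lists had no edgeR call in HFD → RC against the other 3 groups, and at an unadjusted p under 0.05 they had 3, 0, 0 and 1 genes. With limma-voom the medians were -0.10 for S phase, 0.01 for thymidine supply, -0.07 for G2 and mitosis and 0.02 for G1, so the sign for G2 and mitosis depended on the tool.

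Over the 6 comparisons the edgeR medians without Tk1 ran from -0.10 to 0.35 for S phase, -0.05 to 0.01 for thymidine supply, -0.34 to 0.27 for G2 and mitosis and -0.05 to 0.06 for G1. With edgeR the values furthest from 0 were those of G2 and mitosis in HFD → RC against HFD NoDS (0.27, 15 higher and 4 lower) and in the effect of the current diet by earlier diet (-0.34, 6 higher and 13 lower), and of S phase in the latter (0.35, 22 higher and 9 lower). At an unadjusted p under 0.05 these had 0, 0 and 1 genes. In the G2 and mitosis list HFD NoDS replicate 20 stood apart, with 190 summed reads and 17 of 28 genes at 0. The rest of that group had 365 to 439 summed reads and 8 to 11 genes at 0. In HFD NoDS against RC NoDS the limma methods placed G2 and mitosis lower, with medians of -0.82 with limma-voom (2 higher and 17 lower) and -0.72 with limma-trend, where edgeR had -0.21. In HFD → RC against RC NoDS they were -0.53 and -0.40, where edgeR had -0.02. In the effect of the current diet by earlier diet they were higher than with edgeR, at -0.20 and -0.21.

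Zeros themselves were then counted in the weakly expressed genes of these lists. Of the 4 lists, 18 genes other than Tk1 averaged 5 to 20 reads, a range that includes Tk1. In HFD → RC, 25 of their 90 values were at 0 (27.8%), against 24.5% of the values of all 1882 genes in this range. The corresponding shares were 25.6% and 24.4% in HFD NoDS, 13.9% and 18.3% in RC → HFD, and 3.33% and 5.27% in RC NoDS. Among these 18 genes, 0 were at 0 in every HFD → RC library. Their summed reads per library averaged 219.8 in HFD → RC, 225.4 in HFD NoDS, 220 in RC → HFD and 218 in RC NoDS. Over the wider range of 5 to 50 reads, with 40 cell cycle genes other than Tk1, the shares of values at 0 were 14.5% for these and 16.5% for all genes in HFD → RC, 14% and 16.3% in HFD NoDS, 6.25% and 11.9% in RC → HFD, and 1.5% and 3.22% in RC NoDS. These shares are a description, and the difference between cell cycle genes and all genes was not tested.

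Neighbouring genes of the Tk1 locus were read in HFD → RC. Afmid, which encodes arylformamidase of the kynurenine pathway, lies on the plus strand at 117670982 to 117701222 on chromosome 11 in mm9, a span that encloses Tk1 on the opposite strand. The exons of both genes share 83 bases, 5.76% of the 1440 exon bases of Tk1. The library kit keeps strand, but whether strand was used in counting is not given in the sources used here, so reads from these bases could belong to either gene. Afmid had 128, 112, 152, 125 and 113 reads in HFD → RC, and it was not called in any of the 6 comparisons.

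Of 10 neighbours, all 10 averaged at least 5 reads and 0 were called in any of the 6 comparisons by edgeR. At an unadjusted p under 0.05 there was 1, Socs3, in each of 3 comparisons, HFD → RC against the other 3 groups, HFD → RC against HFD NoDS and HFD NoDS against RC NoDS. DESeq2 called Socs3 in the last of these, and limma-voom and limma-trend called 0 neighbours. Socs3, an inhibitor of leptin and cytokine signalling, had 147 to 231 reads in HFD → RC, 145 to 241 in RC NoDS, 192 to 382 in RC → HFD and 260 to 381 in HFD NoDS. Its HFD NoDS libraries overlapped neither those of RC NoDS nor those of HFD → RC, a separation seen in 0.913% and 0.995% of all genes tested. Birc5, which encodes survivin of the mitotic chromosomal passenger complex, had 27, 1, 28, 18 and 32 reads in HFD → RC and 13 to 31 in RC NoDS. Among the rest, HFD → RC had 255 to 335 reads of Syngr2, 85 to 174 of Tha1, 1205 to 1542 of Pgs1, 67 to 141 of Tmc6 and 1905 to 2244 of Tnrc6c. The weakest neighbours, Tmc8 and Dnahc17, averaged 12.7 and 13.2 reads over the 21 libraries, and each was at 0 in 1 HFD → RC library. Apart from these zeros, genes beside Tk1, at similar or higher levels, had reads in HFD → RC libraries where Tk1 had none. The part of the locus in the Tk1 zeros was not tested.

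Promoter windows were compared to see what the proliferation genes share in sequence. RefSeq windows of 300 bases on GRCm38.p6, from 250 before to 50 after the start, were found for 8 of the 10 genes, Ccnd1 and Ccnd2 being those not matched. Both strands were searched for an E2F motif (TTTGGCGC, TTTGCCGC, TTTCGCGC or TTTCCCGC), the CHR element of late cell cycle genes (TTTGAA), the CCAAT box (CCAAT) and the GC box (GGGCGG). The GC box was in all 8 windows, against 35.7% of 32851 windows of all genes. The CCAAT box was in 6 of the 8 (37.4% of all windows), the CHR element in 3, Mcm2, Mki67 and Top2a (17.9%), and the E2F motif in 1, Mcm6 (2.26%). The Tk1 window held the GC box and none of the other 3 motifs, which says only that these letters are not in this window. In RefSeq the starts of Tk1 and Afmid lie such that 96 bases belong to both transcripts.

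The following 30-base stretches show, on the strand of each gene and with the motif in capitals, the GC box of Tk1 at chr11:117826010-117826039, the E2F motif of Mcm6 at chr1:128359735-128359764 and the CHR element of Mki67 at chr7:135716460-135716489 and of Top2a at chr11:99024195-99024224, where it is read on the opposite strand. All lie on the minus strand of GRCm38.p6, and the motif begins 13, 47, 98 and 23 bases before the start. The 4 windows held 1, 3, 2 and 2 matches of the motif named, and 1 of each is shown. The stretches are shown because the Tk1 window, like that of Tyms, held only the GC box, whereas the E2F motif and the CHR element were found in other genes.
Tk1: agtcccggctctGGGCGGctgcaccacacc
Mcm6: tgattggacgggTTTGGCGCgaagtagctc
Mki67: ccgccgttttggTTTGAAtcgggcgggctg
Top2a: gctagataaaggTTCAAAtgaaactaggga

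Markers of cells that the punches could hold were read beside these values. The tissue was checked with 10 markers of the ventral hypothalamus, among them Agrp, Npy, Pomc and Cartpt. Each of the 10 had reads in every library, and their summed reads were 16614 to 25234 in HFD → RC and 15503 to 25951 over all libraries, with Pomc the most abundant (here and below, by reads summed over the 21 libraries). Of these 10, edgeR called 0 in HFD → RC against the other 3 groups, Npy against RC → HFD and against HFD NoDS, Cartpt against HFD NoDS, and Agrp, Npy and Cartpt in HFD NoDS against RC NoDS.

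Cell types that can divide in the adult hypothalamus were present in all groups. The 8 oligodendrocyte precursor markers summed to 10743 ± 2009 reads (SD, n = 5) in HFD → RC, against 9865 ± 1364 (n = 5) for HFD NoDS, 9164 ± 910 (n = 6) for RC → HFD and 8548 ± 988 (n = 5) for RC NoDS, with Olig1 the most abundant. All 8 had a higher fitted level in HFD → RC than in the other 3 groups (median log2 fold change 0.12), and 0 were called (3 at an unadjusted p under 0.05). Much of the higher sum was Bcas1, which is made as precursors mature, with a mean of 2593 reads in HFD → RC against 1493 in RC NoDS. The precursor markers Pdgfra (1185 against 1135) and Cspg4 (381 against 368) were closer. Sox10 had 634 to 1156 reads in HFD → RC against 420 to 828 in RC NoDS. Olig2 had 559 to 924 against 525 to 723, and Gpr17 1459 to 1940 against 1332 to 1632. Against RC NoDS all 8 had a higher fitted level, with 0 called by edgeR. Of these, 4 had an unadjusted p under 0.05, where 7.01% of all genes tested had one. The 10 markers of neural progenitors and newborn neurons summed to 2981 ± 218 reads in HFD → RC and 2702 to 3760 over all libraries, led by Sox2, with 9 tested and 0 called (1 at an unadjusted p under 0.05). The 8 microglia markers summed to 6580 ± 635 reads in HFD → RC and 5609 to 7922 over all libraries, led by Csf1r, with 0 called (0 at an unadjusted p under 0.05).

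The 7 markers of tanycytes, the glia that line the floor of the third ventricle, summed to 7814 ± 1358 reads (SD, n = 5) in HFD → RC, 7574 ± 1622 (n = 6) in RC → HFD, 9998 ± 1321 (n = 5) in RC NoDS and 10111 ± 1174 (n = 5) in HFD NoDS, with Col23a1 the most abundant. In HFD → RC against the other 3 groups 6 of the 7 were lower (median log2 fold change -0.15), and 0 were called (2 at an unadjusted p under 0.05). The 8 endothelial and pericyte markers summed to 3456 ± 309 reads in HFD → RC and 2916 to 3810 over all libraries, led by Flt1, with 0 called (0 at an unadjusted p under 0.05). The 8 choroid plexus markers, led by Clic6, summed to 1165 ± 196 reads in HFD → RC and 1190 ± 87.9 in HFD NoDS. Their sums were 1286 ± 126 in RC → HFD and 1334 ± 71.3 in RC NoDS, with 0 called (3 at an unadjusted p under 0.05). In a library 1 to 3 of them were at 0 in HFD → RC, 0 to 2 in HFD NoDS, 0 to 4 in RC → HFD and 0 to 1 in RC NoDS.

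The choroid plexus sum is mostly Clic6, with a mean of 842 reads over the 21 libraries, and weaker markers of the list varied apart from it. Cldn2, which encodes claudin 2 of epithelial tight junctions, had 0, 0, 4, 4 and 0 reads in HFD → RC, 6 to 22 in RC NoDS, 11 to 19 in RC → HFD and 3 to 17 in HFD NoDS. Its HFD → RC libraries thus overlapped neither RC NoDS nor RC → HFD (as in 1.36% and 0.472% of all genes tested), and overlapped HFD NoDS through replicate 20. It was picked out after its values were seen. In HFD → RC against the other 3 groups it was not called by edgeR (adjusted p = 0.379), and DESeq2 called it, while limma-voom and limma-trend did not.

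Blood, pituitary and the lateral hypothalamus can enter a punch from outside. The 8 blood cell markers found summed to 6881, 2436, 2757, 757 and 3650 reads in HFD → RC and to 1755 ± 459 (SD, n = 6) in RC → HFD, 3961 ± 545 (n = 5) in RC NoDS and 2586 ± 1194 (n = 5) in HFD NoDS, led by Hbb-b1. The 5 anterior pituitary markers found, of which Cga had the most reads over the 21 libraries, summed to 2816, 144, 81, 57 and 282 reads in HFD → RC, with replicate 13 the highest of all 21 libraries. In that library 2003 of the reads were of Gh, which had 0 to 4 in the other 4 of the group, and Lhb was above Cga in replicates 15 (64 against 11) and 16 (33 against 19). Up to 2 of the 5 markers were at 0 in a library. The 2 lateral hypothalamus markers, Pmch and Hcrt, summed to 791 to 1842 reads in HFD → RC and 378 to 2400 over all libraries. In HFD → RC against the other 3 groups, 0 markers of these 3 lists were called by edgeR (1, 1 and 0 at an unadjusted p under 0.05). In HFD NoDS against RC NoDS edgeR called Hcrt as higher, where it called 0.063% of all genes tested. DESeq2 called 1 of the 2 lateral markers there, and limma-voom and limma-trend called 0. Hcrt had 93, 1051, 823, 187 and 234 reads in HFD NoDS replicates 19, 20, 21, 23 and 24, and 28 to 105 in RC NoDS. The paper reported Hcrt as similar across all groups. The blood markers were furthest apart against RC → HFD, where all 7 tested were higher in HFD → RC (median log2 fold change 0.91), and 5 of the 7 had an unadjusted p under 0.05. In 4 of the 5 HFD → RC libraries their sum lay above the highest RC → HFD library (2170). None of the 7 was called by edgeR, DESeq2, limma-voom or limma-trend, the last 3 with 5, 2 and 1 at an unadjusted p under 0.05.

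Against RC → HFD, the other marker lists had 2 oligodendrocyte precursor, 1 neural progenitor, 1 microglia, 0 tanycyte, 0 endothelial, 4 choroid plexus, 1 pituitary, 0 lateral and 4 ventral hypothalamus markers at an unadjusted p under 0.05 by edgeR, and Npy was the only one called. Over all genes tested 5.02% had such a p in this comparison, and 6.59% in HFD → RC against the other 3 groups. DESeq2 called 2 ventral hypothalamus markers in HFD → RC against RC → HFD, and 2 oligodendrocyte precursor markers in HFD → RC against RC NoDS. In both comparisons it also called more of all genes than edgeR (counts under How the results depend on the processing). The ranges of the sums in HFD → RC overlapped those of the other groups. The part of any of these markers in the Tk1 values was not tested.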

How the data were processed

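Per the labels and the study's methods, the authors aligned single-end reads to mm9 with STAR 2.5.1b, merged sequencing runs with Picard 2.7.1, and used PORT to remove ribosomal and mitochondrial reads and re-sample each library. The authors deposited counts, whole reads per gene, which were used unscaled. Counts of the 21 libraries were scaled by TMM and fitted in R 4.3.3 with the quasi-likelihood F-test of edgeR 4.0.16, 1 mean per group, over 15884 genes averaging at least 5 reads, with Benjamini-Hochberg adjustment over all of them and a threshold of 0.15. The SE of a log2 fold change is its size divided by the square root of F. Alternatives were DESeq2 1.42.0, the voom and trend methods of limma 3.58.1 (trend on log2 of the count + 1), a minimum mean of 50 reads, no filter, no TMM, only the groups compared, the share of low genes at 0 as a covariate, and each library left out. The fits were tested on simulated data. Shares were compared by exact permutation (Python 3.11.15, numpy 2.4.6, pandas 2.3.3). Figures were drawn with matplotlib 3.10.9.

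The 10 genes and the lists were chosen with earlier results of these data known. Genes named are the 10, Tk2, the neighbours of Tk1, called genes of the 4 cell cycle lists, up to 10 genes with 0 reads in all HFD → RC libraries and at least 5 on average elsewhere, the 5 genes most correlated with Tk1, and marker genes. Positions and exon lengths, from protein-coding transcripts, are those of GENCODE vM1 (mm9), which matched 21654 of 21654 identifiers. Counts of library pairs within a group differed by more than sampling noise in all 45 pairs (chi-square per degree of freedom 6.25 to 36.5), so each library was counted as 1 replicate. Hbb-bs, Hbb-bt and Pou1f1 were not analysed here. Of the tanycyte markers 1, and of the genes with 0 reads in all HFD → RC libraries 1, is not reported here.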

Additional observations from a re-analysis of the deposited data

Results flagged for a closer look

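A value of 1 of the 10 genes stood far from its group. In RC → HFD replicate 12, Ccnd2 had 154 reads, against 305 to 394 in the 5 others, and its gap to the nearest of them was 0.629 of the whole range. This library had 22.4% of low genes at 0, the highest share of RC → HFD. Over 44 sets of values examined in this way, chance alone gives a flag in about 1 in 20. The log2 fold change of Ccnd2 in HFD → RC against RC → HFD was 0.41 with this library and 0.27 without it, and over all 30 alternatives it ran from 0.16 to 0.51.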

How the results depend on the processing

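The count of called genes among the 9 other than Tk1 was 0 in all 6 comparisons under every alternative except DESeq2, which called 1 (Ccnd1, log2 fold change 0.62) in HFD NoDS against RC NoDS. The High Filter tested only 6 of the 9, without Rrm2, Mki67 and Top2a. The count over all genes moved widely, and the cause was not tested. For HFD → RC against the other 3 groups it was 50 with no filter, 78 with DESeq2, 0 with limma-voom, limma-trend or the covariate, and 0 to 90 with 1 library left out (90 without HFD → RC replicate 16). Against RC NoDS it was 10 with library size only, 155 with DESeq2, 6 with limma-voom, 1 with limma-trend or the covariate, and 1 to 179 with 1 library left out (179 without HFD → RC replicate 16). Against RC → HFD it was 1 with the High Filter, limma-voom or only the 2 groups, 7 with DESeq2, and 1 to 39 with 1 library left out (39 without HFD → RC replicate 16). Against HFD NoDS it was 9 with the High Filter or limma-voom, 67 with DESeq2, 7 with limma-trend, 14 with the covariate, 1 with only the 2 groups, and 0 to 9 with 1 library left out (0 without HFD → RC replicate 17). In HFD NoDS against RC NoDS it was 26 with DESeq2, 6 with the covariate and 5 to 12 with 1 library left out (5 without RC NoDS replicate 1 or 3). For the effect of the current diet by earlier diet it was 4 with the High Filter, 5 with no filter, 115 with DESeq2, 11 with limma-voom, 7 with the covariate, and 0 to 93 with 1 library left out (93 without HFD NoDS replicate 19). Without the 9 libraries with over 10% of low genes at 0, chosen after seeing the data, these counts were 391, 464, 0, 392, 11 and 652, and they rest on 2 HFD → RC, 2 HFD NoDS, 3 RC → HFD and 5 RC NoDS libraries.

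Small log2 fold changes turned sign. In HFD → RC against the other 3 groups, Mcm2 was 0.0553 with limma-voom, 0.0432 with limma-trend, 0.23 without the 9 libraries and -0.11 to 0.0830 with 1 library left out. Top2a was -1.11 with limma-voom, -0.89 with limma-trend, -1.10 with the covariate, -2.24 without the 9 libraries and -1.13 to 0.35 with 1 library left out (-1.13 without HFD → RC replicate 17). Ccnd1 was -0.11 to 0.0301 with 1 library left out. Mki67 without the 9 libraries was 0.0357 in that comparison and 0.89 against HFD NoDS. None of these passed the threshold in any setting, and the cause was not tested. The share of low genes at 0 differed by 9.42 to 15.97 percentage points between HFD → RC and RC NoDS, by 8.89 to 15.2 between HFD NoDS and RC NoDS and by -4.37 to 3.63 between HFD NoDS and HFD → RC with 1 library left out. The former pair of differences lost an adjusted p under 0.05 without any of the 5 RC NoDS libraries (0.0714 to 0.119). No paired analysis was possible because the groups share no replicate numbers. Genes near 10 reads, such as Tk1, Mki67 and Top2a, had SEs of about 1 on the log2 scale, so only large differences of these could be detected.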

Other observations

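Summed reads of tanycyte markers averaged lower in both groups that had switched diet than in both that had not. Tanycytes contact the ventricle, carry nutrient and hormone signals to hypothalamic neurons, and can divide in adult mice. Their 7 markers, Rax, Vim, Lhx2, Col23a1, Crym, Gpr50 and Dio2, summed to 5325 to 9518 reads in the 6 RC → HFD libraries and 5980 to 9603 in the 5 HFD → RC libraries, against 8208 to 11398 in RC NoDS and 8505 to 11758 in HFD NoDS, with overlap. In the test of whether the effect of the current diet differed with the earlier diet, all 7 had a positive log2 fold change, with a median of 0.84, and 6 had an unadjusted p under 0.05, where 8.16% of all genes tested had one.

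After adjustment edgeR called 0 of the 7 beside 0 of all genes, while DESeq2 called 3 of the 7. Over all genes, DESeq2 and the fit without the 9 libraries described below called more than edgeR (counts under How the results depend on the processing). The median ran from 0.74 to 1.24 and the number with an unadjusted p under 0.05 from 6 to 7 over 29 alternatives. The called number was 3 without HFD → RC replicate 14, 2 without HFD NoDS replicate 19, 1 without HFD NoDS replicate 20 and 6 without the 9 libraries with over 10% of low genes at 0, which leaves 2 HFD → RC, 2 HFD NoDS, 3 RC → HFD and 5 RC NoDS libraries. Other marker lists also lay away from 0 in the same test, and the medians of choroid plexus, blood and pituitary markers depended more on the tool. With edgeR, limma-voom and limma-trend the medians were 0.33, 0.36 and 0.40 for ventral hypothalamus markers, 0.23, 1.2 and 0.95 for choroid plexus markers, 0.75, 1.03 and 1.07 for blood markers and -1.11, 0.09 and -0.40 for pituitary markers. At an unadjusted p under 0.05 these tools had 4, 5 and 5 of 10 ventral hypothalamus, 0, 1 and 1 of 8 choroid plexus, 1, 3 and 3 of 7 blood and 2, 0 and 0 of 5 pituitary markers. Oligodendrocyte precursor and endothelial markers were lower in 7 of 8 each with all 3 tools. None of these markers was called by the 3 tools, and DESeq2 called 1 ventral hypothalamus marker. The tanycyte median was 0.87 with limma-voom and 0.91 with limma-trend. Their part in the tanycyte values was not tested. The list was written with earlier results of these data known, and whether these values reflect the number of tanycytes or their RNA content was not tested.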
